A study of Mus musculus with 2 samples.

Results

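The EGR, NR4A, FOS and JUN genes described here encode transcription factors of the immediate-early kind, and they were taken as the rows of the deposited tables that carry 1 of 10 gene symbols, namely Egr1, Egr2, Egr3, Nr4a1, Nr4a2, Nr4a3, Fosl2, Jun, Junb and Jund. All 10 were found among the 23282 rows of each table. The study asked how Tubastatin A (TSA), a small-molecule inhibitor of the cytoplasmic deacetylase HDAC6, affects the differentiation of mouse regulatory T (Treg) cells. Wild-type naïve CD4+ T cells from the spleens of female C57BL/6 mice aged 7 to 10 weeks were stimulated for 1 day on plates coated with anti-CD3 (5 μg/ml) with soluble anti-CD28 (2 μg/ml), TGF-β1 (5 ng/ml), IL-2 (1 ng/ml), and antibodies to IFN-γ and IL-4 (10 μg/ml each). The control culture received the vehicle DMSO and the other culture received 10 μM TSA, so both groups shared the stimulation and the cytokines. One library was made from each culture. No difference below therefore has a replicate check, no p-value was computed, and every comparison is between 2 libraries.

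Immediate-early genes are switched on within minutes of T cell receptor engagement, from factors already present in the resting cell, and their messenger RNAs are as a rule short-lived. EGR proteins are zinc-finger factors, of which Egr2 and Egr3 restrain T cell activation and take part in anergy. NR4A proteins are orphan nuclear receptors that act without a known natural ligand, follow the strength of receptor signalling, and support Foxp3 expression in Treg cells. FOS and JUN proteins pair through leucine zippers to form AP-1, which acts together with NFAT at the Il2 gene and many other activation genes. NR4A factors can act at sites that AP-1 would otherwise use.

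To show DNA before annotated starts of these genes, stretches upstream of 4 of them are given. They come from the RefSeq promoter table (build GRCm38.p6), 5′ to 3′ on the strand of the gene. Nr4a3 and Nr4a2 were chosen because they carry the largest opposite differences within 1 family, Egr2 because it holds a binding element of the serum response factor SRF, and Jun because its change differed from that of Junb and Jund. Each ends at the last base before the annotated start, except that of Nr4a3, which is cut where the annotated exon begins. The Nr4a2 start used lies 8965 bases from the 5′ end of the longest coding Nr4a2 transcript in GENCODE M21. Its stretch is therefore not the DNA directly before that transcript. The same distance is 152 bases for Nr4a3 and 0 for Egr2 and Jun. Capitals mark the MEF2 box in Nr4a2 and in Jun and the CArG box, the SRF element, in Egr2. No letters are in capitals for Nr4a3.
Nr4a3, chr4:48045055-48045152, plus strand: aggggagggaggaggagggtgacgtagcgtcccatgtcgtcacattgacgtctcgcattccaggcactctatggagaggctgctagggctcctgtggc
Nr4a2, chr2:57124004-57124253, minus strand: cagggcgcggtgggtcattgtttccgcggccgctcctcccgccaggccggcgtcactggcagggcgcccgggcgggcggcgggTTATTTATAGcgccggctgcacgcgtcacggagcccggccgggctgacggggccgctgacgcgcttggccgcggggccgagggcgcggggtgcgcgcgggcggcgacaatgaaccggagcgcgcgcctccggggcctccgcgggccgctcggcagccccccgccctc
Egr2, chr10:67537619-67537868, plus strand: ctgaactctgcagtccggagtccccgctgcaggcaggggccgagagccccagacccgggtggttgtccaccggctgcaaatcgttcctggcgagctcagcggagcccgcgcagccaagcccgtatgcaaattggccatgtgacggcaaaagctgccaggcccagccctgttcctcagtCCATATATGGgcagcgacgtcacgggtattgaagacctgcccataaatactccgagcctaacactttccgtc
Jun, chr4:95052223-95052472, minus strand: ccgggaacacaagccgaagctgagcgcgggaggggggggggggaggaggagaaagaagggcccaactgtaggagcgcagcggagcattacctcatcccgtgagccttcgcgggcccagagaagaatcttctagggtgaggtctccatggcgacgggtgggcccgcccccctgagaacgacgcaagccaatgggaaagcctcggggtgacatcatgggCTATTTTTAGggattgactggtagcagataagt

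The promoter table held windows of 250 bases before to 50 bases after the start for 8 of the 10 genes, all but Egr1 and Egr3, with 12 windows in all because Egr2 has 5 annotated starts. Genes are counted below if any of their windows holds the motif, whereas the shares of all windows are per window. The CArG box, bound by SRF, lay in the printed Egr2 window 72 bases before the start, and 1.63% of all 32851 windows of this length held one on either strand. A MEF2 box is bound by factors that calcium signals release from class IIa deacetylases. It lay 33 bases before the Jun start and 167 bases before the Nr4a2 start used, against 3.19% of all windows. The Nr4a2 box shares bases with a match to the TATA letters TATAAA on the other strand. Windows of Fosl2, Nr4a1 and Nr4a2 held the EGR element GCGNGGGCG, which was present in 5.55% of all windows and which in these genes shares bases with a match to the GC box GGGCGG. Of the remaining motifs searched on both strands, the GC box was found in 6 of the genes (35.7% of all windows), the ETS core CCGGAA in Egr2 and Nr4a1 (14.9%), and TATAAA in Junb and Nr4a2 (13.6%). The ETS and GC matches of Egr2 lie in windows of its other starts, not in the stretch printed above. The cyclic AMP element TGACGTCA (1.79%), the AP-1 element TGANTCA (7.81%) and the NR4A element AAAGGTCA (1.51%) were in none of these genes' windows. These matches describe the letters of the windows, and whether a factor bound there was not measured.

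The libraries held 10846166 reads on genes in the control and 10432628 in the TSA culture. They came from a kit that reads the 3′ end of each polyadenylated transcript, so that 1 transcript gives about 1 read whatever its length and levels are not divided by length. CPM is the reads of a gene per 1000000 reads of its library, and a normalized count is the value that remains when the deposited log2 scale is undone. The repeat RNA Rn45s took 8.72% and 9.63% of the reads. Transcripts of 6 T cell markers summed to 1251 and 1414 CPM, and Cd4 had 2434 and 2549 reads. The 27 markers of B, CD8, myeloid, dendritic, NK and erythroid cells summed to 22.9 and 26.9 CPM. Of these, 6 were at 0 in both libraries, among them Pax5, Klrb1c, Clec9a, Siglech and Hba-a2. Others had reads, with 65 and 77 for Cd8b1, 47 and 40 for Klrd1, 32 and 19 for Cd68, and 28 and 28 for Hba-a1. Of the 5 dendritic markers, Flt3 had 0 and 33 reads, whereas Itgax had 4 and 0 and Xcr1 had 9 and 6. The part of other cells in the results was not tested. In whole cultures, fewer cells of a type and less RNA per cell cannot be told apart.

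Each of the 10 genes was well measured, with 224 to 5479 reads per library. Nr4a3 had the highest level in both libraries and Fosl2 the lowest. In the control culture the order by normalized count was Nr4a3, Jund, Junb, Nr4a1, Egr1, Egr3, Egr2, Jun, Nr4a2 and Fosl2. Neighbours with overlapping 95% counting intervals were Egr3 with Egr2 and Egr2 with Jun in the control, and Egr2 with Egr3 and Egr3 with Jun in the TSA culture. In the TSA culture Nr4a1 (normalized count 2396, interval 2301 to 2494) stood above Junb (2125, 2036 to 2218), whereas in the control culture Junb (2557, 2459 to 2659) stood above Nr4a1 (2297, 2203 to 2392). Together the 10 genes took 0.153% of the reads of the control library and 0.160% of those of the TSA library.

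**Figure D1:**
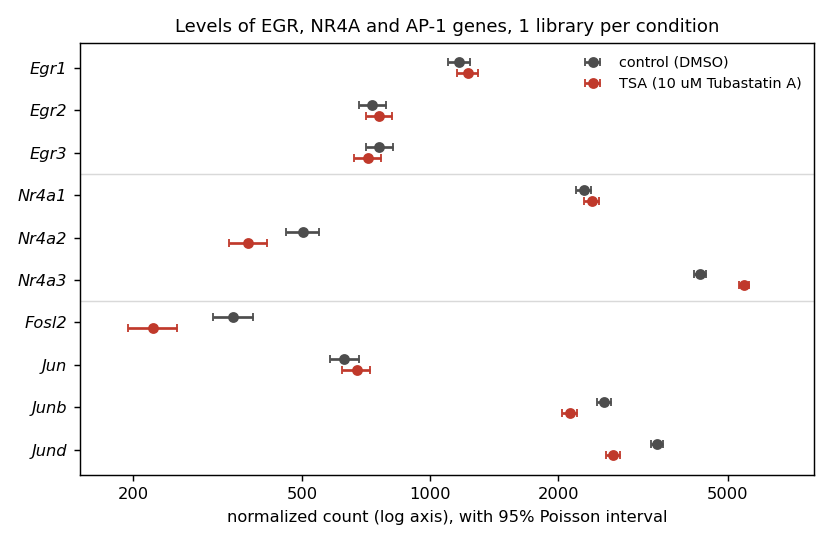
Normalized counts of the 10 genes (horizontal log axis) in the control and the TSA library, with 1 point per library and bars for the exact 95% Poisson counting interval. Nr4a3 lies highest and Fosl2 lowest in both libraries, and the control and TSA bars do not meet for Nr4a2, Nr4a3, Fosl2, Junb and Jund.

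None of the 10 genes differed by 2-fold, the size at which the study called a gene changed. Among the 12164 genes with at least 10 reads in a library, 11.5% were higher and 3.15% were lower past 2-fold in the TSA culture. Few of those calls were at the level of these genes, since all 10 averaged at least 200 normalized counts over the libraries, and of 6571 genes at that level only 1.7% were past 2-fold. Fosl2 alone passed 1.5-fold (lower) in the deposited scaling, as did 9.13% of the genes at that level in either direction, and scaled by total reads (fold change 0.679) none of the 10 did. Of the 10 genes, 5 were higher and 5 lower in the TSA culture, with a median log2 fold change of -0.02, beside 0.02 over all genes tested and -0.08 over those with a mean of at least 200. The median size of the change, whatever its direction, was 0.18 on the log2 scale, beside 0.22 over the same 6571 genes. Read intervals, which cover counting error only, lay wholly above 1 for Nr4a3 and wholly below 1 for Nr4a2, Fosl2, Junb and Jund. At this level 22.5% of all genes had such an interval above 1 and 40.6% below it. These counts depended on the scaling of the libraries. Scaled by total reads, 4 of the 10 genes (Nr4a3, Nr4a1, Egr1 and Jun) lay above 1 and 4 below, beside 29.7% and 30.9% of all genes at this level.

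**Figure D2:**
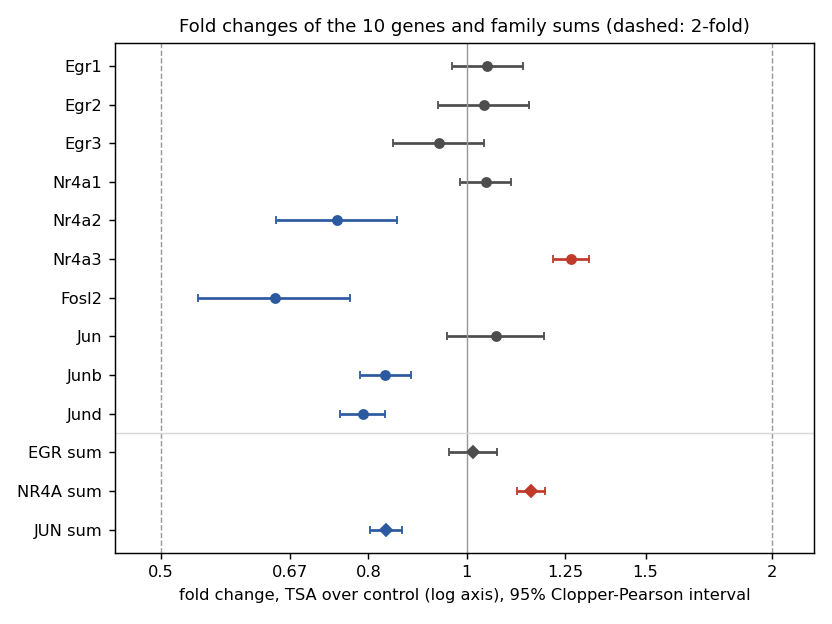
Fold change of each gene (circles) and of the summed reads of the EGR, NR4A and JUN families (diamonds), TSA over control (horizontal log axis), with exact 95% counting intervals, coloured red where the interval lies above 1, blue where it lies below 1 and grey where it includes 1. Nr4a3 lies above 1, Nr4a2, Fosl2, Junb and Jund lie below 1, the intervals of the other 5 genes include 1, and no gene reaches the 2-fold lines.

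The 3 EGR genes differed little between the cultures. Egr1, which is induced through SRF and ELK factors by the ERK pathway, had 1164 reads in the control and 1231 in the TSA library (fold change 1.05, 95% interval 0.966 to 1.14). Egr2, a factor of T cell anergy, had 727 and 763 reads (fold change 1.04, 0.938 to 1.15). Egr3, which acts with Egr2 and is itself a target of NFAT, had 756 and 716 reads (fold change 0.938, 0.846 to 1.04). All 3 intervals include 1 in the deposited scaling, and scaled by total reads that of Egr1 lay above 1 (fold change 1.10, 1.01 to 1.19). At their level 83.3%, 86.3% and 77.1% of the 6571 genes had a larger change than Egr1, Egr2 and Egr3. The summed reads of the family, 2647 and 2710, gave a fold change of 1.01 (0.961 to 1.07).

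Within the NR4A family the differences went in opposite directions. Nr4a3, the family member with the highest level here, had 4286 reads in the control and 5479 in the TSA library (fold change 1.27, 1.22 to 1.32). Nr4a2 had 499 and 375 reads (fold change 0.744, 0.649 to 0.853). The Nr4a3 level was thus higher and the Nr4a2 level lower in the TSA culture, both past counting error. Nr4a1, widely used as a reporter of receptor signal strength under its name Nur77, had 2285 and 2408 reads (fold change 1.04, 0.985 to 1.11), which includes no change, and scaled by total reads its fold change was 1.10 (1.03 to 1.16). Of the genes with a mean of at least 200, 28.5% changed by more than Nr4a3 and 18.8% by more than Nr4a2 in either direction. In the direction of Nr4a3, 10.2% of these genes had a higher fold change.

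A ratio of 2 genes within a library does not depend on how the libraries are scaled, and 12 such ratios were compared. Nr4a3 had 8.59 reads for each Nr4a2 read in the control and 14.6 in the TSA culture, a change of 1.70-fold (1.48 to 1.96). The ratio of Nr4a3 to Nr4a1 went from 1.88 to 2.28 (1.21-fold, 1.13 to 1.30) and that of Nr4a1 to Nr4a2 from 4.58 to 6.42 (1.40-fold, 1.21 to 1.62). Nr4a3 therefore made up 60.6% (59.5 to 61.8) of the family's reads in the control and 66.3% (65.3 to 67.3) in the TSA culture, while Nr4a2 went from 7.06% to 4.54% and Nr4a1 from 32.3% to 29.1%. The family's summed reads were 7070 and 8262 (fold change 1.16, 1.12 to 1.19), and without Nr4a3 the fold change of the sum was 0.990 (0.939 to 1.04). For the EGR genes, the 3 ratios changed by 1.01-fold to 1.12-fold, with intervals that all include 1, and Egr1 made up 44.0% and 45.4% of the family's reads.

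**Figure D3:**
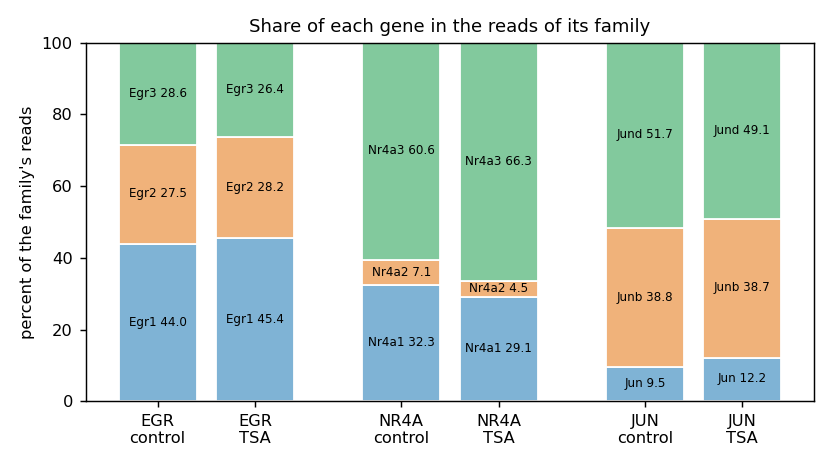
Stacked bars of the percent of each family's reads (vertical axis) that each gene takes in the control and the TSA library, for the EGR, NR4A and JUN families, with the percent printed in each segment. From control to TSA, Nr4a3 goes from 60.6% to 66.3%, Nr4a2 from 7.06% to 4.54% and Jun from 9.52% to 12.2%, while Egr1 goes from 44.0% to 45.4%.

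Among the AP-1 genes, Fosl2, Junb and Jund were lower in the TSA culture and Jun was close to its control level. Fosl2, which encodes the FOS family protein Fra-2, had 343 reads in the control and 224 in the TSA library (fold change 0.647, 0.544 to 0.767). That was the largest change of the 10 genes, and 7.40% of the genes with a mean of at least 200 changed by more. Jund, the JUN member with steady expression in many resting cells, had 3396 and 2707 reads (fold change 0.789, 0.750 to 0.830). Junb, which pairs with BATF and is needed in several effector and Treg subsets, had 2545 and 2136 reads (fold change 0.831, 0.784 to 0.881). Jun, the founding member and a strong activator, had 625 and 674 reads (fold change 1.07, 0.956 to 1.19), an interval that includes 1, and scaled by total reads its fold change was 1.12 (1.004 to 1.252). Of the genes at this level, 28.4% changed by more than Jund and 40.0% by more than Junb. The sum over the 3 JUN genes, 6566 and 5517 reads, was lower in the TSA culture at a fold change of 0.832 (0.803 to 0.862).

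The differences within the JUN family were larger than counting error where Jun was involved. The ratio of Jun to Jund reads went from 0.184 to 0.249, a change of 1.35-fold (1.20 to 1.53), and that of Jun to Junb changed by 1.28-fold (1.14 to 1.45). The ratio of Junb to Jund changed by 1.05-fold (0.975 to 1.14), which includes no change. Jun took 9.52% of the family's reads in the control and 12.2% in the TSA culture, Junb 38.8% and 38.7%, and Jund 51.7% and 49.1%. Each JUN gene gained on Fosl2, by 1.65-fold (1.35 to 2.02) for Jun, 1.29-fold (1.08 to 1.54) for Junb and 1.22-fold (1.02 to 1.46) for Jund.

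The reads of Junb may carry a limit of their own. The annotation (GENCODE M21, GRCm38) places Junb on the minus strand at chr8:84974484-84978718. The 3′ edge of this span lies within Prdx2, a protein-coding gene on the opposite strand that encodes a peroxidase. The longest coding Junb transcript is 1 exon of 1809 bases, shorter than the span. Whether the 3′ end of that transcript reaches Prdx2 was not tested. Prdx2 had 1475 and 1789 reads (fold change 1.20, 1.12 to 1.29), opposite in direction to Junb. The strand setting of the read counting is not given in the sources used here, so reads of the pair at this end cannot be told apart. Jun (chr4:95049034-95052222, minus strand) and Jund (chr8:70698949-70700616, plus strand) overlap antisense genes that do not reach their 3′ ends and have no row in the tables. No other annotated gene overlaps Egr1, Egr2 (chr10:67535475-67542188, plus strand), Egr3 (chr14:70077203-70082614, plus strand), Fosl2 (chr5:32135801-32157842, plus strand), Nr4a1 (chr15:101254269-101274795, plus strand), Nr4a2 (chr2:57106830-57124003, minus strand) or Nr4a3 (chr4:48045153-48086447, plus strand).

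**Figure D4:**
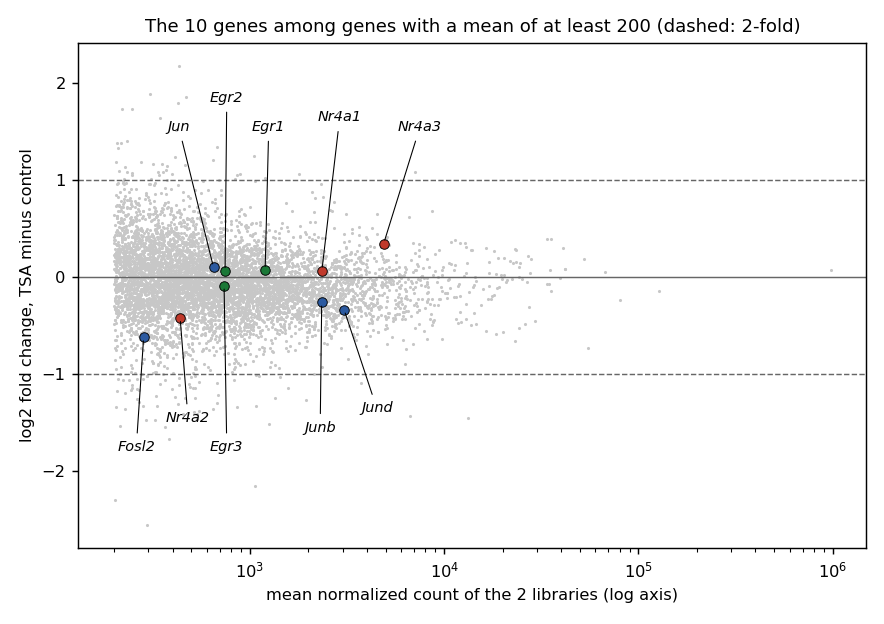
Log2 fold change (TSA minus control, vertical axis) against mean normalized count (horizontal log axis) for the 6571 genes with a mean of at least 200, in grey, with the 10 genes coloured by family (EGR green, NR4A red, FOS and JUN blue). All 10 lie between the dashed 2-fold lines, inside the cloud of other genes.

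The 10 genes shared a sequence feature in their 3′ untranslated regions. It was counted over the whole region of the longest coding transcript, not only the part that the reads cover. AU-rich 3′ untranslated regions mark many short-lived messenger RNAs. All 10 genes had the pentamer ATTTA there, as did 70.6% of the 6223 genes of that level with a value, and 10 of 10 were above the median density of these genes, 1.37 per kb. Their own median was 2.38 per kb, from 1.62 per kb in Nr4a3 to 5.52 per kb in Nr4a1. Jun, Junb and Jund are single-exon genes, as were 1.53% of the 6223. Whether the density goes with the change was not tested.

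Of the related genes, 117 symbols in 8 lists were examined, of which 110 passed the minimum of 10 reads in a library. Of these, 9 were higher past 2-fold in the TSA culture, 2 were lower, and 99 did not pass 2-fold, with a median log2 fold change of 0.01. The 9 of 110 and 2 of 110 stand beside the 11.5% and 3.15% of all genes tested. Most of those past 2-fold had few reads.

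The dimer partners of the AP-1 genes held 1 gene past 2-fold among the 13 tested, with a median log2 fold change of 0.18. Fos, the founding partner of Jun, had 4 and 12 reads (fold change 2.97, 0.900 to 12.6), an interval that includes no change. Bach2, a repressor that limits AP-1 at shared sites and stabilises Treg cells, was the partner with the most reads, 4493 and 5141 (fold change 1.13, 1.09 to 1.18). Maf, a large MAF protein, had 1192 and 1706 reads (fold change 1.42, 1.32 to 1.53). The 4 FOS genes together, which add Fos, Fosb and Fosl1 to Fosl2, had 515 and 378 reads (fold change 0.727, 0.635 to 0.832). Without Fosl2 the sum was 172 and 154 reads (fold change 0.887, 0.709 to 1.11), an interval that includes 1. Of the added genes, Fosl1 had 129 and 122 reads (0.936, 0.725 to 1.21) and Fosb 39 and 20 reads (0.508, 0.281 to 0.892). Fosl2 made up 66.6% of these reads in the control (62.3 to 70.7) and 59.3% in the TSA culture (54.1 to 64.3), so the intervals of its share overlap. FOS genes were the minor side of AP-1, with 7.27% (6.68 to 7.90) and 6.41% (5.80 to 7.07) of the reads of the 7 FOS and JUN genes.

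The EGR partners had no gene past 2-fold. Nab1 and Nab2 encode corepressors that bind EGR proteins and dampen them, and Nab2 is itself an EGR target. Nab2 had 1081 and 887 reads (fold change 0.812, 0.743 to 0.889), and Nab1 had 564 and 589 reads (fold change 1.03, 0.920 to 1.16). Egr4, the remaining EGR gene, named here after its values were seen, had 16 and 31 reads (fold change 1.92, 1.02 to 3.76). The median log2 fold change of the list was 0.05.

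Factors that act upstream held 1 gene past 2-fold among 18 tested, with a median log2 fold change of 0.18. Hdac9, a class IIa deacetylase that represses MEF2 targets, had 1 and 27 reads (fold change 26.7, 4.41 to 1095). Its relative Hdac7, the class IIa deacetylase with the most reads, had 5823 and 5905 reads (fold change 1.004, 0.968 to 1.04). Creb1, which binds the cyclic AMP element, had 1573 and 1577 reads (fold change 0.993, 0.925 to 1.07). In the MAP kinase pathway, 1 of 20 tested genes passed 2-fold and the median was -0.02. Map2k6, an activator of p38, had 11 and 26 reads (fold change 2.34, 1.12 to 5.25). Map2k3, the other p38 activator and far more abundant here, was lower, with 2503 and 1921 reads (fold change 0.760, 0.716 to 0.807).

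Of the other immediate-early genes, 1 of 18 was past 2-fold, with 8 higher and 10 lower by any amount and a median log2 fold change of -0.08. Ier3, a stress-induced gene linked to survival, had 148 and 317 reads (fold change 2.12, 1.74 to 2.60). Pim1, a kinase induced by IL-2, had 2554 and 2856 reads (fold change 1.11, 1.05 to 1.17), and Ier5 had 1551 and 1240 reads (fold change 0.792, 0.734 to 0.854). No gene passed 2-fold among the 8 tested genes that control JUN protein by ubiquitination or signalosome activity, whose median was -0.03. Cops5, a signalosome subunit that binds JUN, had 1313 and 1231 reads, and Fbxw7, a ubiquitin ligase subunit, had 1000 and 1075 reads.

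Genes known as targets of EGR and NR4A factors held 3 of 17 past 2-fold, all higher in the TSA culture, with a median log2 fold change of 0.25. Nrn1, a surface protein of anergic T cells and Treg cells, had 20 and 85 reads (fold change 4.21, 2.56 to 7.23). Rnf128, the anergy ligase GRAIL, had 3 and 50 reads (fold change 16.5, 5.33 to 82.7). Fasl, a death ligand, had 17 and 38 reads (fold change 2.21, 1.22 to 4.18). The most abundant targets lay the other way within 2-fold, as Dgkz, a kinase that removes diacylglycerol, had 3866 and 3267 reads (0.837, 0.798 to 0.877) and Tnfrsf9, the costimulatory receptor 4-1BB, had 3071 and 2295 reads (0.740, 0.701 to 0.781). Foxp3, named after its values were seen because it defines Treg cells and is a target of NR4A factors, had 1633 and 965 reads (fold change 0.585, 0.540 to 0.634).

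Known AP-1 targets split, with 2 of 13 higher and 2 lower past 2-fold and a median log2 fold change of -0.32. Ccnd1, which encodes cyclin D1, had 16 and 85 reads (fold change 5.26, 3.06 to 9.62), and Plaur, the urokinase receptor, had 49 and 122 reads (fold change 2.47, 1.76 to 3.51). Hmox1, the heme oxygenase of the oxidative stress response, had 30 and 7 reads (fold change 0.231, 0.0857 to 0.537). Timp1, a metalloproteinase inhibitor, had 25 and 7 reads (fold change 0.277, 0.101 to 0.659). Il2ra, the IL-2 receptor alpha chain CD25, was the target with the most reads, 8851 and 7511 (fold change 0.840, 0.815 to 0.867). Fth1, a ferritin chain, had 3739 and 4251 reads (fold change 1.13, 1.08 to 1.18). The lists are known relations from other systems, and whether the factors acted on these genes in these cultures was not measured.

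**Figure D5:**
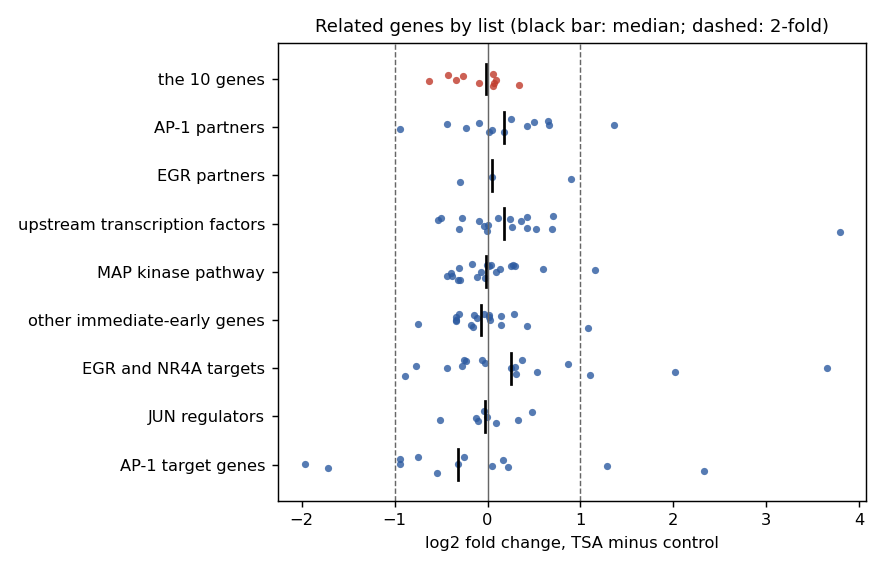
Log2 fold change (TSA minus control, horizontal axis) of the 10 genes (red) and of each tested gene of the 8 lists of related genes (blue), with a black bar at each median and dashed lines at 2-fold. The medians of the lists lie between -0.32 (AP-1 targets) and 0.25 (EGR and NR4A targets), and few points pass the 2-fold lines.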

How the data were processed

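RNA was sequenced from 1 control and 1 TSA culture of mouse T cells, assigned from the treatment labels. The authors prepared QuantSeq 3′ libraries from 500 ng of total RNA and read them as single-end 75-nt reads. The submitters' processing notes name Bowtie2, bedtools and the build mm10. Versions, the strand setting and the normalization are not given in the sources used here. The authors deposited 1 value per gene symbol and library on a log2 scale, which the values show to be log2 of a normalized count plus 1, with multiples of 1.005 (control) and 0.995 (TSA). In this way 99.95% and 99.94% of the values of 1 to 300 reads fell within 0.1 of a whole read, and 1940 control rows with tiny values were read as 0.

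The log2 fold change is the TSA value minus the control value, which contains a pseudocount of 1. Tested were genes that reached 10 reads in 1 library, and 2-fold was the threshold. Intervals of fold changes, ratios and shares are exact Clopper-Pearson 95% intervals of the reads, and those of levels exact Poisson intervals. All cover counting error only, since reads had no molecular identifiers. With 1 library per condition no test across genes was made. The genes and lists were chosen with earlier results of these data known. Named are the 10 genes and, from each list, the 3 genes with the highest mean past 2-fold in each direction and the 2 with the highest mean overall. Prdx2, Foxp3, Egr4 and the genes that only complete a family sum were added. A gene that this rule names is not reported here.

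Positions and exons came from GENCODE M21, promoters from RefSeq. Motifs were searched on both strands. Other scalings, pseudocounts, filters and thresholds were tried. The steps were tested on simulated data. Computations used pandas 2.3.3, scipy 1.17.1, numpy 2.4.6 and matplotlib 3.10.9 under Python 3.11.15.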

Additional observations from a re-analysis of the deposited data

How the results depend on the processing

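No paired analysis was possible because each condition had a single library, and none could be left out. None of the 10 genes changed direction between the deposited scaling and 7 other scalings and pseudocounts, and the range of Egr3, from -0.09 to -0.0080, came nearest to 0. Lowering the threshold to 1.5-fold gave 1 of the 10 genes past it and 1 lower (Fosl2, log2 -0.63), a call that was lost with total reads (-0.56), without Rn45s (-0.54) and narrowly with the upper quartile (-0.58). The median of the 10 genes, -0.02 as deposited, reversed to 0.0517 with total reads, 0.0240 with the upper quartile and 0.0660 with total reads without Rn45s, settings that moved the median of all genes tested from 0.02 to 0.08, 0.06 and 0.10. With total reads, with or without Rn45s, the intervals of Egr1, Nr4a1 and Jun also lay above 1 (4 of the 10 genes in place of 1, beside 29.7% and 31.3% of all genes at their level), and with the upper quartile that of Nr4a1 (2 of the 10, beside 26.4%). Summed log2 fold changes became 0.28 (total reads) and 0.30 (without Rn45s) for NR4A against 0.21, -0.20 and -0.18 for JUN against -0.27, and 0.10 (without Rn45s) for EGR against 0.02. Related genes past 2-fold, 11 in the report, were 6 with 10 reads required in both libraries, 4 with a mean of at least 50, 25 at 1.5-fold and 4 with the whole interval past 2-fold. The same settings gave 747, 419, 3293 and 703 of all genes against 1783, and 4017 without a filter. Depth limits the values of Fos, Hdac9 and Rnf128, which had 4, 1 and 3 control reads.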
